A study of Mus musculus with 4 samples.

Results

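The 8 genes described here, *Wt1*, *Tbx18*, *Upk3b*, *Upk1b*, *Mab21l2*, *Sema3d*, *Bnc1* and *Bnc2*, are used as markers of the epicardium and of related mesothelial linings. They were chosen by symbol, and all 8 were found in the feature list of each library, among 32286 listed genes at days 4 to 6 and 32287 at day 11. The data were single-cell transcriptomes of gastruloids, aggregates of Zx1 mouse embryonic stem cells labelled wild type, sampled on culture days 4, 5, 6 and, last, 11. The aggregates were grown in N2B27 medium, received an early pulse of the Wnt agonist CHIR99021, and were exposed to bFGF, VEGF and ascorbic acid from day 4 until the medium was changed back. Each day was represented by 1 library made from pooled gastruloids of 1 cell line. Day and library therefore cannot be told apart, no test between days was made, and every 95% interval below covers counting error only.

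The epicardium is the mesothelial layer that covers the heart. It grows from the proepicardium, a cluster of progenitors next to the venous pole of the heart tube, and some of its cells leave the layer and form fibroblasts and mural cells of the vessels. Mesothelium of the same general kind lines the body cavities and their organs. None of the 8 genes belongs to these layers alone. *Wt1*, a zinc finger transcription factor, is also known for the kidney, the gonad and some endothelial cells, *Tbx18*, a T-box factor, for somites and the sinus venosus, and *Mab21l2* for eye, limb and body wall. *Upk3b* and *Upk1b* encode uroplakins, membrane proteins first described in the bladder, *Sema3d* encodes a secreted guidance cue, and *Bnc1* and *Bnc2* encode the basonuclin zinc finger proteins.

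On the mm10 build, GENCODE vM21 places *Wt1* on chromosome 2 (105126529 to 105173616, plus strand), *Mab21l2* on chromosome 3 (86545581 to 86548629, minus), *Bnc2* on chromosome 4 (84275095 to 84675275, minus), *Sema3d* on chromosome 5 (12383385 to 12588948, plus) and *Upk3b* on chromosome 5 (136038496 to 136046487, plus). *Bnc1* lies on chromosome 7 (81966672 to 81992292, minus), *Tbx18* on chromosome 9 (87702800 to 87731260, minus) and *Upk1b* on chromosome 16 (38773184 to 38800328, minus). All 8 are protein-coding, and the values refer to whole genes. *Mab21l2* lies inside *Lrba*, which is read from the opposite strand. The RefSeq promoter table of the same build, which gives 250 bases before to 50 bases after a start, matched 6 of the 8 genes, without *Wt1* and *Upk1b*. The promoters of *Upk3b* (chr5:136038246-136038545, plus strand) and *Bnc1* (chr7:81992250-81992549, minus strand) are printed because this pair had the highest co-detection ratio at day 6. Capitals mark matches to the GATA factor motif GATAA and the TEAD factor motif GGAATG, on either strand.
Upk3b: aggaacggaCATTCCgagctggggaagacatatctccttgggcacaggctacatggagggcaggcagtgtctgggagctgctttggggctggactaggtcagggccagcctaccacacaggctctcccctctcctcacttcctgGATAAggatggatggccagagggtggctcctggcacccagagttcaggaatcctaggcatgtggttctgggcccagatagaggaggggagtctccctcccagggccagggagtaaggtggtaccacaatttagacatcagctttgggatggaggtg
Bnc1: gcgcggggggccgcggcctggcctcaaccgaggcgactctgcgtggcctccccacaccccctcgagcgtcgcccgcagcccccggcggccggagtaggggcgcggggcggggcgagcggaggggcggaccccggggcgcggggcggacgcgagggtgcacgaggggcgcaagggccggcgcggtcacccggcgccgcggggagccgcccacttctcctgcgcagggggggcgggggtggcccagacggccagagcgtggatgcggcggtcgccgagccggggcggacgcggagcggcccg
The *Upk3b* window held 1 match to each motif, and the matches do not overlap. No match was found in the *Bnc1* window or in those of *Tbx18*, *Mab21l2*, *Sema3d* and *Bnc2*. The *Bnc2* window (chr4:84610148-84610447, minus strand) lies inside the gene as placed above, at an internal start and not at its outer end. Of all 32851 promoters in the table, 25.4% held GATAA, 14.7% held GGAATG and 3.77% held both. The *Bnc1* window was 83.3% G and C and that of *Upk3b* 58.7%, against a median of 52.7% over the table.

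The libraries held 7324, 7794, 6628 and 9584 barcodes at days 4, 5, 6 and 11, of which 6555, 6457, 5254 and 7850 passed the filters and are called kept cells. Median depth per kept cell was 24200, 28141, 24680.5 and 11425.5 unique molecular identifiers (UMIs, each a counted transcript molecule), so day 11 was the shallowest. Any 2 libraries shared between 5 and 23 barcodes. Kept cells were grouped without using the 8 genes into 20 clusters at day 6 and 26 at day 11. A cluster was given a cell type name ending in "like" when at least 3 markers of that type were at least 2-fold higher in it than in the other cells, more than of any other type and without another type leading its top genes, and otherwise stayed unnamed.

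Most of these genes were near the detection limit until day 5 and present at day 6. Levels are CPM, the UMIs of a gene per 1000000 UMIs of the same cells. From day 5 to day 6, 6 of the 8 genes rose at least 2-fold, where 18.8% of all genes did, and 0 of 8 fell at least 2-fold, where 16.8% did. *Wt1* was at 0.646, 0.518, 23.5 and 20.2 CPM in the libraries of days 4, 5, 6 and 11. In the same order *Tbx18* was at 0.0413, 0.0402, 5.72 and 3.58 CPM. *Mab21l2* was at 0.909, 0.307, 37.4 and 34.0 CPM. Days 6 and 11 lay far above days 4 and 5 for these 3 genes, and the day 6 to day 5 ratios were 45.3 for *Wt1* (95% interval 37.2 to 55.7), 142 for *Tbx18* (71.9 to 331) and 122 for *Mab21l2* (94.8 to 160).

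*Upk1b* had 0 UMIs in the first library and was at 0.0704, 2.21 and 0.746 CPM in the others. Its day 6 level was 31.5 times that of day 5 (18.5 to 58.2), and day 11 was 0.337 times day 6 (0.262 to 0.429), the only drop of at least 2-fold over that interval, where 9.05% of all genes fell as far. With every barcode of more than 200 genes that drop was no longer 2-fold. *Sema3d* (0.294, 0.186, 0.867 and 4.08 CPM) and *Bnc2* (0.914, 0.860, 3.94 and 12.7 CPM) rose at both later steps. Their day 11 to day 6 ratios were 4.71 (3.87 to 5.76) and 3.21 (2.92 to 3.54), and 21.2% of all genes rose at least 2-fold between those days. *Bnc1* stayed within a narrow range at 1.15, 1.43, 1.15 and 0.781 CPM. *Upk3b* was at 0.0413, 0.312, 0.360 and 0.606 CPM. From day 4 to day 5, *Upk3b* was 7.54 times higher (3.60 to 18.2) and *Upk1b* at least 4.54-fold higher against a floor of 3 UMIs, where 22.0% of all genes rose 2-fold, and *Mab21l2* fell to 0.337 of its level (0.248 to 0.454), where 8.40% fell. The 62 *Upk3b* UMIs of day 5 lay in 62 different cells, while the 69 of day 11 lay in 7 cells.

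**Figure D1:**
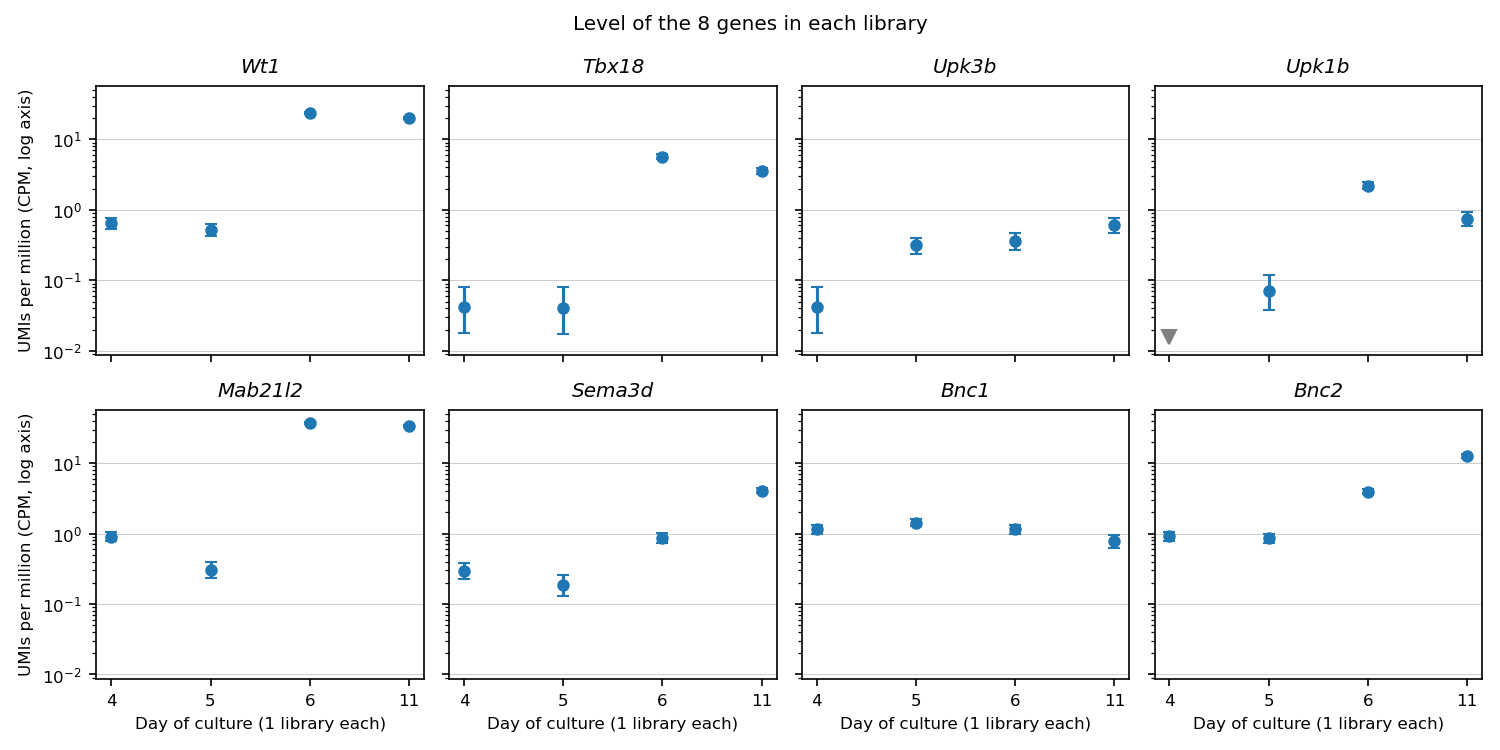
Level of each gene at days 4, 5, 6 and 11 in CPM on a log axis, 1 library per day, with exact Poisson 95% intervals and a grey triangle at the 3-UMI floor where 0 UMIs were counted. *Wt1*, *Tbx18*, *Upk1b* and *Mab21l2* step up between days 5 and 6, *Sema3d* and *Bnc2* rise again to day 11, and *Bnc1* stays between 0.781 and 1.43 CPM.

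*Wt1* was the most widely found of these regulators together with *Mab21l2*. At day 6, 26.5% of kept cells had a *Wt1* UMI (10.1% once cells were thinned to 5000 UMIs), against 2.76% of endothelium-like cells, whose median depth was 32710.5 UMIs. The highest level was in an unnamed cluster led by *Osr1*, *Meox1* and *Arg1* (99.6 CPM, 92.0 to 108), followed by a mesenchyme-like cluster led by *Rprm*, *Rarres2* and *Alx1* (58.4 CPM, 53.7 to 63.5), and these intervals do not overlap. The genes best correlated with *Wt1* across the 5254 kept cells, which share 1 library, were *Nr2f2* (r = 0.33), *Peg3* (0.32) and *Zim1* (0.32).

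At day 11 *Wt1* was found in 16.2% of kept cells (9.31% thinned), and 55.2% of the positive cells were mesenchyme-like. A mesenchyme-like cluster led by *Dcn*, *Ecm1* and *Shisa3* was at 67.0 CPM (61.2 to 73.3), an unnamed cluster led by *Tlx1* at 61.2 (52.0 to 71.5) and the endothelium-like cluster at 53.3 (48.7 to 58.2), so neighbours in this order overlap in their intervals. Cardiomyocyte-like cells were at 2.00 CPM, with a *Wt1* UMI in 3.03% of cells at a median depth of 17477 UMIs. Endothelium-like cells made up 16.8% of all *Wt1*-positive cells. Their *Wt1* level had been 0.473 CPM at day 5 and 1.61 at day 6, and the day 11 level was 33.1 times that of day 6 (21.6 to 53.4), while in all other kept cells it went from 25.6 to 17.2 CPM (ratio 0.672, 0.635 to 0.711). The share of endothelium-like cells with a *Wt1* UMI was 2.76% (10 of 362) at day 6 and 47.9% (214 of 447) at day 11, or 0.552% and 23.1% after thinning. With doublets left in, the day 6 level was 4.34 CPM, and the day 11 level still lay between 49.7 and 53.3 CPM under every alternative tried. Across all kept cells of day 11, *Sparcl1* (r = 0.29), *Ets1* (0.27) and *Tgfbi* (0.26) correlated best with *Wt1*.

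For sets of cells, a gene was called at least 2-fold higher after 10 was added to both CPM values, if found in at least 10% of the set. All 8 endothelial markers, among them *Cdh5* (67.7 against 13.2 CPM) and *Kdr* (85.3 against 15.2 CPM), were higher by this call in *Wt1*-positive than in other cells at day 11, where 0.646% of all genes were. At day 6, 0 of the 8 were, where 0.0558% of all genes were, and their summed level was 110 CPM in *Wt1*-positive and 358 CPM in other cells. Within the endothelium-like cells of day 11, the *Wt1*-positive cells summed to 2819 CPM of endothelial markers and 78.8 CPM of mesenchymal markers, and the *Wt1*-negative cells to 3109 and 138 CPM. The 1060 *Wt1*-positive cells outside that cluster summed to 2254 CPM of mesenchymal markers. Median doublet scores were 0.0548 in the positive and 0.0579 in the negative endothelium-like cells, and median depths 20441.5 and 13516 UMIs. *Wt1os*, an antisense RNA gene that starts next to *Wt1* and runs the other way without overlapping it, had 218 UMIs at day 6 and 368 at day 11, and 82.7% and 56.9% of the cells holding it also held *Wt1*.

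**Figure D2:**
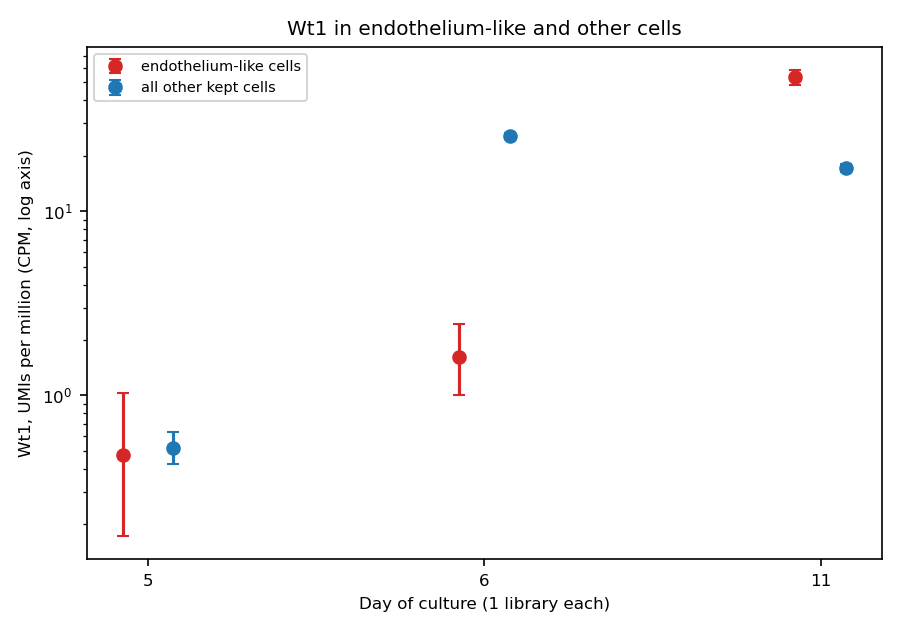
*Wt1* level in CPM on a log axis in endothelium-like cells and in all other kept cells at days 5, 6 and 11, with exact Poisson 95% intervals. The endothelium-like cells go from 1.61 CPM at day 6 to 53.3 CPM at day 11, while the other cells go from 25.6 to 17.2 CPM.

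*Tbx18* and *Mab21l2* shared their leading cluster at day 6. An unnamed cluster of 453 cells led by *Sfrp5*, *Alcam* and *Shox2* held *Tbx18* at 42.1 CPM (38.1 to 46.3) and *Mab21l2* at 190 CPM (181 to 198), with 43.7% of all *Tbx18*-positive cells. *Sfrp5* encodes a secreted Wnt inhibitor and *Shox2* a factor of the sinus venosus. The next clusters were at 11.4 CPM for *Tbx18* and 81.5 CPM for *Mab21l2*, below these intervals. *Mab21l2* correlated best with *Gata6* (r = 0.57), *Sfrp5* (0.54) and *Alcam* (0.52), and *Tbx18* with *Flrt3*, *Alcam* and *Flrt2* (each r = 0.38). In endothelium-like cells *Tbx18* was found in 0.552% and *Mab21l2* in 1.93%.

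At day 11 the 2 genes had different leading clusters. *Tbx18* was highest in a mesenchyme-like cluster led by *Gal*, *Colec11* and *Pde1a* (22.7 CPM, 18.7 to 27.3), next to an unnamed cluster led by *Lix1*, *Prrx1* and *Lhx9* (16.3 CPM, 12.3 to 21.2), which overlaps it. *Mab21l2* was highest in a neural_ectoderm-like cluster led by *Cartpt*, *Ina* and *Sst* (313 CPM, 294 to 332), followed by the cluster led by *Lix1* (222 CPM, 206 to 238). Neuronal *Gng3* (r = 0.38), *Lhx9* (0.37) and *Mapt* (0.35) were the genes best correlated with *Mab21l2* across 7850 cells, and *Prrx1* (0.16), *Thbs2* (0.15) and *Fn1* (0.14) with *Tbx18*.

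*Upk1b* was found in cardiomyocyte-like cells more often than their number alone would give. They held 47.1% of the 208 *Upk1b*-positive kept cells of day 6, with 42.8% in unnamed clusters, and 88.7% of the 62 positive kept cells of day 11, while making up 6.85% and 16.8% of kept cells. The level in them was 16.5 CPM at day 6 (14.0 to 19.3) and 2.34 at day 11 (1.79 to 2.99). Most of these cells had no *Upk1b* UMI: 27.2% held one at day 6 and 4.16% at day 11, or 8.12% and 1.57% after thinning. Median depth of *Upk1b*-positive cells at day 11 was 28419 UMIs, against 11375 in other cells. All 10 cardiomyocyte markers were at least 2-fold higher in *Upk1b*-positive cells on both days, where 1.66% of all genes were at day 6 and 2.22% at day 11. At day 11, 7 further UMIs lay in 1 endoderm-like cell. The *Sfrp5*-led cluster of day 6 came next with 6.66 CPM (5.15 to 8.47). Endothelium-like cells had 0 *Upk1b* UMIs on both days. *Myl4* (r = 0.35), *Tnnt2* (0.34) and *Myl7* (0.33) correlated best with *Upk1b* at day 6, and *Lims2* (0.18), *Bcam* (0.15) and *Hspb1* (0.14) at day 11.

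At day 11 *Bnc2* was high in mesenchyme-like and some unnamed clusters, and *Sema3d* in skeletal_myoblast-like ones. *Bnc2* was at 26.0 CPM in mesenchyme-like and 3.22 CPM in skeletal_myoblast-like cells, and *Sema3d* at 7.01 and 15.6 CPM. *Bnc2* was at 49.2 CPM (41.8 to 57.4) in an unnamed cluster led by *Cxcl14*, at 39.6 (35.1 to 44.5) in the *Dcn*-led mesenchyme-like cluster and at 30.6 (27.4 to 34.1) in the *Scx*-led one, and it correlated best with the collagen gene *Col1a2* (r = 0.31), *Peg3* (0.28) and *Col3a1* (0.26). *Bnc1* was highest in the same *Cxcl14*-led cluster (8.40 CPM, 5.54 to 12.2), which held 33.8% of the *Bnc1*-positive cells. *Sema3d* was highest in a skeletal_myoblast-like cluster led by *Mylpf* (29.1 CPM, 21.1 to 39.2), with *Myod1* (r = 0.14), *Neb* (0.13) and *Itm2a* (0.13) as its best-correlated genes. At day 6 *Sema3d* was highest in the *Osr1*-led cluster that also led for *Wt1* (7.66 CPM, 5.67 to 10.1).

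**Figure D3:**
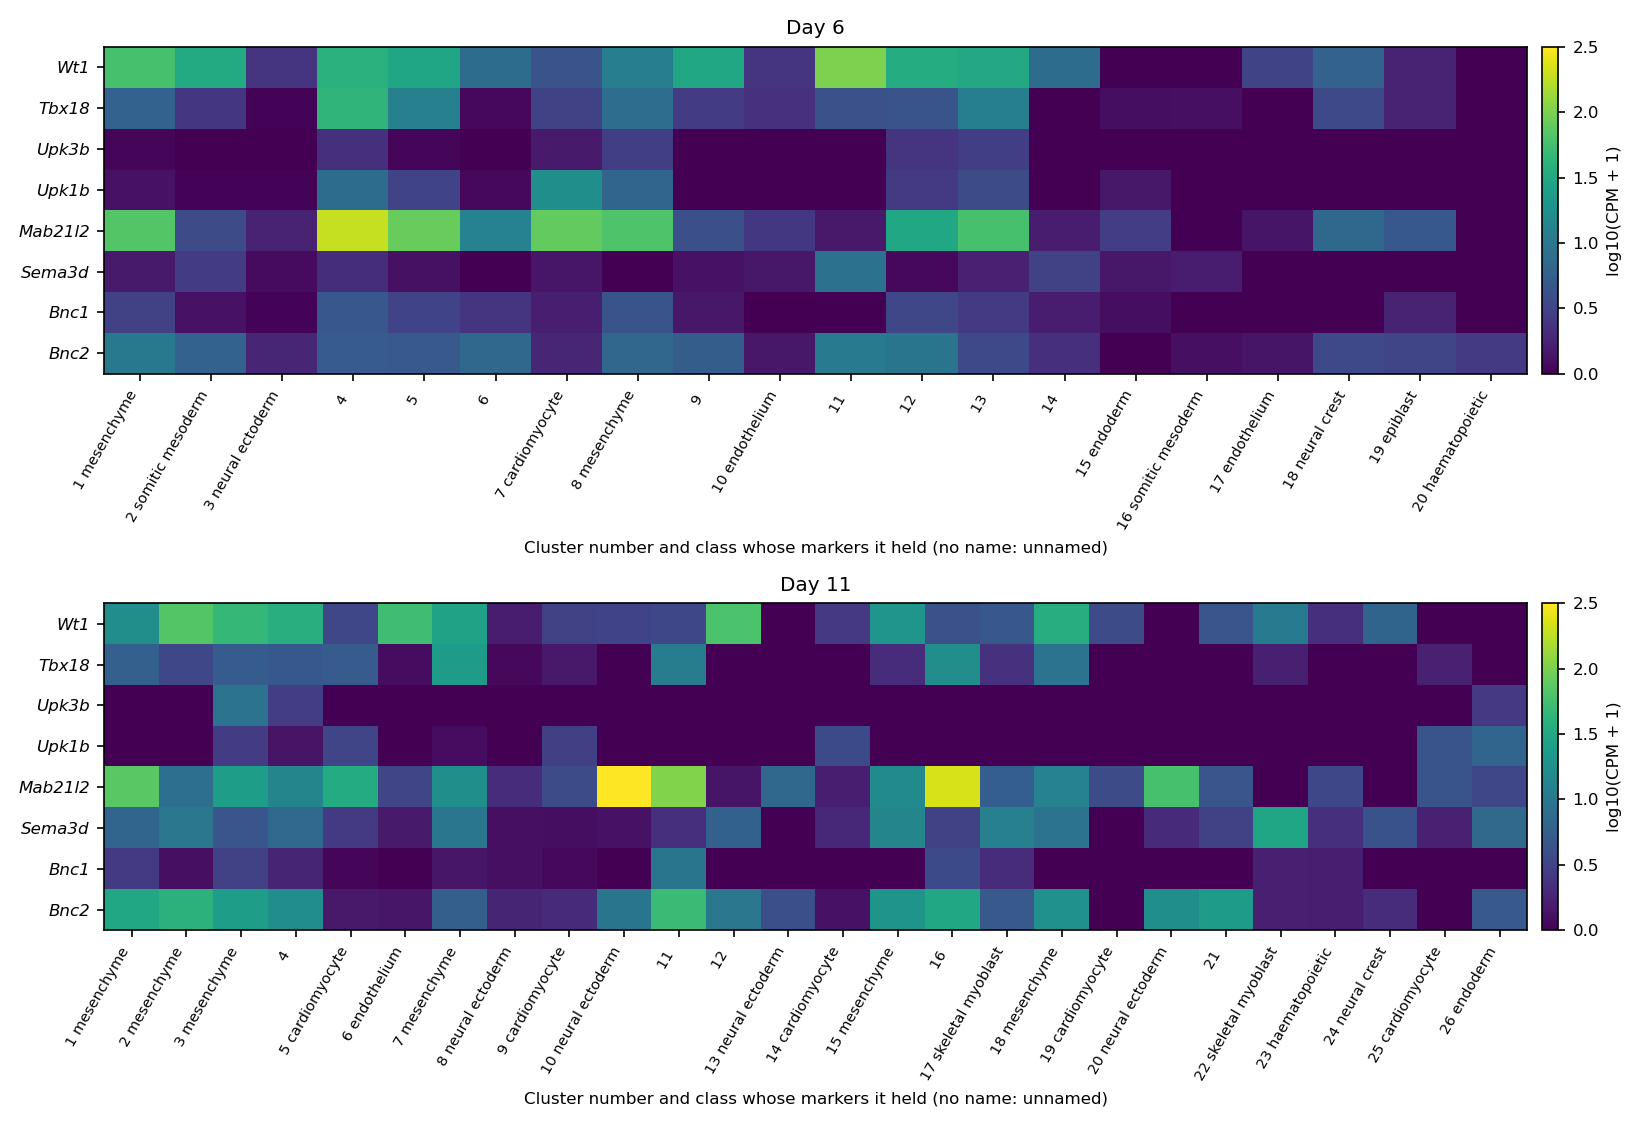
Level of the 8 genes in each cluster at day 6 (20 clusters) and day 11 (26 clusters), coloured by log10(CPM + 1), with the number of the cluster and its cell type where its markers gave one. *Tbx18* and *Mab21l2* peak together in cluster 4 at day 6, and at day 11 *Wt1* is high in the endothelium-like cluster 6 and *Mab21l2* in the neural_ectoderm-like cluster 10.

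Whether the genes marked the same cells was measured from pairs: the number of cells holding both was divided by the number expected from the share of positive cells within 10 strata of depth. Pairs with at least 20 positive cells of each gene were assessed. At day 6, 13 of 28 pairs were at least 2-fold over expectation, with a median ratio of 1.93. Of all genes found in at least 50 cells, 0.174% passed that ratio with *Wt1*, 1.44% with *Tbx18*, 6.71% with *Upk3b*, 4.01% with *Upk1b*, 0.774% with *Mab21l2*, 3.16% with *Sema3d*, 2.51% with *Bnc1* and 0.432% with *Bnc2*. *Tbx18*, *Upk3b*, *Upk1b*, *Mab21l2* and *Bnc1* were grouped from these ratios. That all 10 pairs among them passed therefore follows from the choice and is no separate result. These pairs ran from 2.42 for *Tbx18* with *Mab21l2* (249 cells, 2.13 to 2.74) to 18.1 for *Upk3b* with *Bnc1* (13 cells, 9.62 to 30.9).

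*Wt1* did not reach 2-fold with any of these 5 genes. Its ratios were 1.93 with *Upk3b* (15 cells, 1.08 to 3.18), 1.93 with *Bnc1* (63 cells, or 1.63 within clusters, 1.25 to 2.09), 1.73 with *Tbx18* (180 cells, 1.49 to 2.00), 1.25 with *Mab21l2* (1.14 to 1.37) and 0.758 with *Upk1b* (0.546 to 1.02). Among all 7 others *Sema3d* alone passed 2-fold with it (2.17, 1.64 to 2.82). *Upk3b* with *Bnc2* (7 cells, interval 1.01 to 5.16) and *Bnc1* with *Bnc2* (2.42, 1.59 to 3.51) were the other passing pairs. Part of this sharing followed the clusters. With the expectation taken within each cluster, 5 pairs stayed at least 2-fold over it: *Upk3b* with *Bnc1* (9.43), *Upk1b* (5.48), *Tbx18* (3.47) and *Bnc2* (2.14), and *Upk1b* with *Bnc1* (2.79). *Tbx18* with *Mab21l2* was then at 1.19 (1.04 to 1.34).

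At day 11, 3 of 21 assessed pairs were at least 2-fold over expectation, with a median of 1.33, and *Upk3b* had too few positive kept cells to be assessed. The share of all genes passing was 1.54% with *Wt1*, 1.65% with *Tbx18*, 4.81% with *Upk1b*, 2.55% with *Mab21l2*, 1.59% with *Sema3d*, 5.11% with *Bnc1* and 0.945% with *Bnc2*. The passing pairs were *Tbx18* with *Mab21l2* (2.27, 1.85 to 2.76), *Bnc1* with *Bnc2* (2.69, 1.76 to 3.95) and *Upk1b* with *Bnc1* (5.19, 1.41 to 13.3). With the expectation taken within clusters, the first was at 1.42 (1.16 to 1.72) and the second at 1.31 (0.856 to 1.92), and 2 pairs passed, *Upk1b* with *Bnc1* (15.1, 4.12 to 38.7) and with *Sema3d* (5 cells, 2.87, 0.931 to 6.69). The pair of *Upk1b* and *Bnc1* rested on 4 cells, all of which were also *Upk3b*-positive. All deposited barcodes include those removed by the doublet score or the UMI limits, which may hold more than 1 cell. Over all of them the pair was found in 12 (ratio 7.59, 3.92 to 13.3), of which 11 held 3 or more *Upk3b* UMIs. *Wt1* and *Mab21l2* were found together less than expected (116 cells, ratio 0.604, 0.499 to 0.725), and 0.929 (0.768 to 1.11) with the expectation taken within clusters. *Wt1* with *Tbx18* was at 1.08 (0.809 to 1.41) in kept cells and at 1.29 (1.04 to 1.58) over all deposited barcodes, where 7 of the 94 barcodes with both held 3 or more *Upk3b* UMIs.

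**Figure D4:**
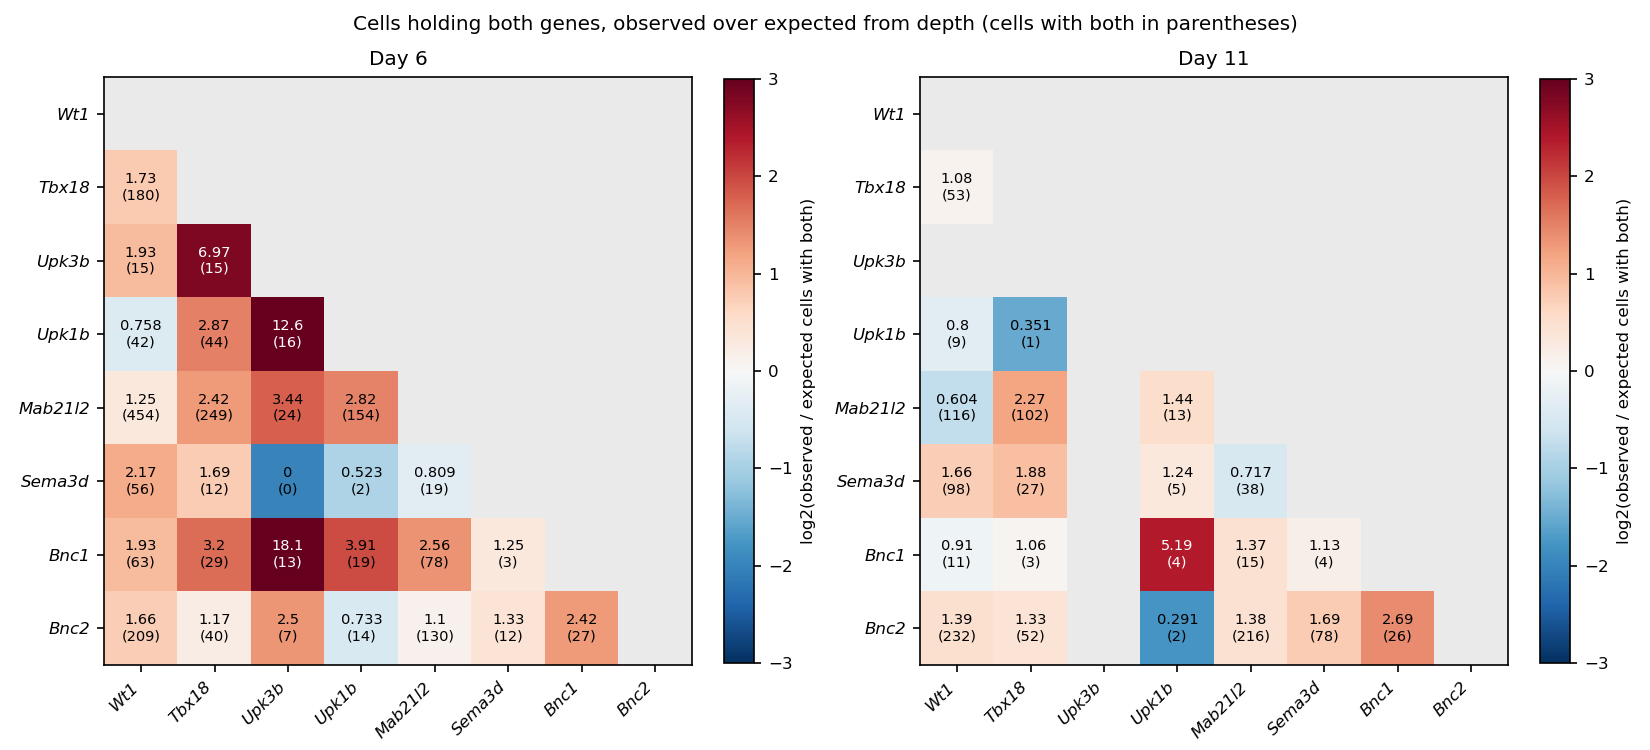
Observed over expected cells holding both genes of each pair at days 6 and 11, printed with the number of such cells in parentheses and coloured by log2 of the ratio (colours end at 3 in each direction, ratios under 0.25 share a colour, and grey pairs were not assessed). At day 6 the pairs among *Tbx18*, *Upk3b*, *Upk1b*, *Mab21l2* and *Bnc1*, grouped from these ratios, lie between 2.42 and 18.1, and at day 11 only 3 pairs pass 2.

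Cells holding 3 or more of the 8 genes numbered 283 at day 6 (5.39%) and 131 at day 11 (1.67%). After thinning to 5000 UMIs the shares were 0.401% (21 cells) and 0.398% (30 cells). These shares were close, but on counts too small to say that the days were alike at equal depth. At day 6, 104 of the 283 cells lay in the *Sfrp5*-led cluster, where they were 23.0% of cells (19.2 to 27.1). Of 8 genes of the venous pole and juxtacardiac field, 5 were at least 2-fold higher in these cells, where 0.481% of all genes were: *Gata4* (108 against 28.6 CPM), *Gata6* (415 against 149), *Tbx5* (61.6 against 16.1), *Tbx20* (61.3 against 22.4) and *Bmp4* (118 against 49.3). With doublets left in, 3 of the 8 passed. The median ratio of that list was 2.17, and that of 14 other epicardial and mesothelial genes was 1.02, with 0 of 14 raised. The retinoic acid enzyme *Aldh1a2* was at 10.2 against 10.5 CPM and *Tcf21*, which is also in the fibroblast list, at 27.8 against 19.5 CPM.

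At day 11 the 131 cells were spread over 13 clusters. The *Dcn*-led mesenchyme-like cluster held the largest share of them, 18.3%. The mesenchyme-like clusters led by *Tac2*, *Scx* and *Gal* followed in that order, each with a larger share than any unnamed cluster. Among the unnamed clusters, that led by *Top2a* held 12.2% and that led by *Lix1* 10.7%. In the *Lix1*-led cluster, 6.60% of the cells held 3 or more of the genes (3.66 to 10.8). Of 8 fibroblast genes, 6 were at least 2-fold higher in the 131 cells, where 0.245% of all genes were, among them *Col1a1* (359 against 137 CPM) and *Dcn* (181 against 77.1 CPM), and 3 were in cells with 2 or more of the genes. Of 7 limb and body wall genes, 3 were, with *Prrx1* at 313 against 115 CPM, and 1 was with doublets left in or in cells with 4 or more. Again 0 of the 14 other epicardial and mesothelial genes were raised. *Lrrn4*, a mesothelial membrane protein, was at 3.32 against 0.0269 CPM, levels too low for the call once 10 CPM was added. The higher level rested on few cells: 1 with 13 *Upk3b* UMIs held 5 *Lrrn4* UMIs, and those with 16 and 17 held 1 each. The 10 cardiomyocyte markers summed to 1837 CPM in these cells and 7824 CPM in the others. Median depths were 14702 and 11388 UMIs.

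*Upk3b*, the gene of the 8 found in the fewest cells at day 6, was found in 29 kept cells. Of these, 24 also held *Mab21l2*, 16 *Upk1b*, 15 *Wt1*, 15 *Tbx18* and 13 *Bnc1*, and 0 held *Sema3d*. They lay in several clusters, 9 in mesenchyme-like, 4 in cardiomyocyte-like and 16 in unnamed ones, and no endothelium-like cell held *Upk3b*. Their median depth was 30534 UMIs, against 24653 in the other cells. The epithelial keratins *Krt8* (752 against 71.9 CPM) and *Krt18* (401 against 55.5 CPM) were higher in them, where 1.07% of all genes were at least 2-fold higher. *Epcam*, *Cdh1*, *Cldn6* and *Esrp1*, epithelial adhesion and splicing genes, were at 0 UMIs in the 29 cells. Of the 14 other epicardial and mesothelial genes 3 were raised, *Lrrn4* (21.3 against 2.48 CPM), *Krt19* (60.7 against 14.6) and *Podxl* (63.9 against 9.49), while *Aldh1a2* and *Rspo1* were at 0 UMIs.

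Among all deposited barcodes, 8 at day 6 and 16 at day 11 held 3 or more *Upk3b* UMIs, a limit chosen after the values were seen. At day 6 they held 3 to 6 UMIs each and 46.6% of the library's *Upk3b* UMIs, and 29 other barcodes held 1 or 2. At day 11 they held 6 to 67 (median 12.5), together 263 of 265 *Upk3b* UMIs, and the 2 other positive barcodes held 1 each. They were 0.167% of the day 11 barcodes (0.0955 to 0.271). Only 5 of the 16 were kept cells, 4 of them in the mesenchyme-like cluster led by *Tac2*. The doublet score removed 8 and the upper limit on UMIs removed 3. Whether the removed barcodes hold 1 cell or several was not tested.

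The 16 barcodes shared other genes of the set. *Wt1* was found in 14 of them, *Upk1b* in 14, *Bnc1* in 13 and *Tbx18* in 7, with 3 to 7 of the 8 genes in each barcode. Among 3662 other barcodes at least as deep as the shallowest of the 16 (13593 UMIs), 20.4% held *Wt1*, 2.21% *Upk1b*, 1.15% *Bnc1* and 5.65% *Tbx18*. Their median depth was 20884 UMIs, against 35791.5 for the 16. In CPM, *Upk1b* was 151 times higher in the 16 than in all other barcodes (114 to 199), *Bnc1* 64.7 times (40.7 to 99.8), *Tbx18* 17.5 times (12.6 to 23.9) and *Wt1* 5.30 times (4.16 to 6.65). *Mab21l2* (0.977, 0.604 to 1.49) and *Bnc2* (0.740, 0.271 to 1.61) were not higher, and *Sema3d* was at 2.15 (0.787 to 4.72). The 16 barcodes thus held 42.1% of all *Upk1b* UMIs and 23.7% of all *Bnc1* UMIs of day 11, but 2.48% of the *Wt1* UMIs. The deepest of them, a removed barcode of 134096 UMIs, alone held 37 *Upk1b*, 14 *Tbx18* and 12 *Wt1* UMIs and 0 of *Bnc1*. The pooled ratios give it the most weight. In the 5 kept barcodes *Tbx18* was at 0 UMIs in each, and all 7 with *Tbx18* were among the 11 removed.

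Of the 14 other epicardial and mesothelial genes, 7 were at least 2-fold higher in the 16 barcodes, where 1.13% of all genes were (1.73% for the 8 barcodes of day 6, with 5 of 14). *Lrrn4* had 43 of its 51 UMIs there (84.3%), in 11 barcodes. *Krt19* was at 349 against 12.1 CPM in 15 barcodes, *Krt7* at 77.0 against 2.05 in 11, *Rspo1*, a secreted Wnt enhancer, at 118 against 11.0 in 15, and *Aldh1a2* at 122 against 10.9 in 8. *Podxl* and *Aldh1a1* were the other 2. The removed barcode of 134096 UMIs alone held 111 *Krt19*, 35 *Aldh1a2* and 16 *Lrrn4* UMIs. *Msln* had 1 UMI in 1 barcode and *Muc16* had 0, both of which are classical markers of mature mesothelium. *Krt8* (273 against 18.1 CPM) and *Krt18* (354 against 27.4 CPM) were high, and the other 5 simple epithelium genes, *Epcam*, *Cdh1*, *Cldn6*, *Cldn7* and *Esrp1*, were at 0. The urothelial genes *Upk1a*, *Upk2*, *Upk3a*, *Krt5* and *Trp63* were at 0 as well, and *Krt20* had 1 UMI. Of 8 kidney genes 7 were at 0, and all 10 haematopoietic markers were. Mesenchymal markers summed to 1476 CPM in the 16 and 1118 CPM in the other barcodes, with 2 of 9 raised. Fibroblast genes summed to 1407 and 919 CPM (2 of 8 raised), with *Dcn* at 435 against 73.4 CPM. Of 8 venous pole and juxtacardiac genes, 3 were raised. Cardiomyocyte markers summed to 2840 CPM in the 16 and 8278 CPM in the other barcodes, and endothelial markers to 328 and 369 CPM. The cardiomyocyte and endothelial sums were uneven between barcodes: *Tnnt2* had 166 and 79 UMIs in 2 barcodes over the UMI limit, at most 24 in each of the others and 0 in 5, and *Pecam1* and *Cdh5* were found in 2 removed barcodes and in none of the 5 kept.

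**Figure D5:**
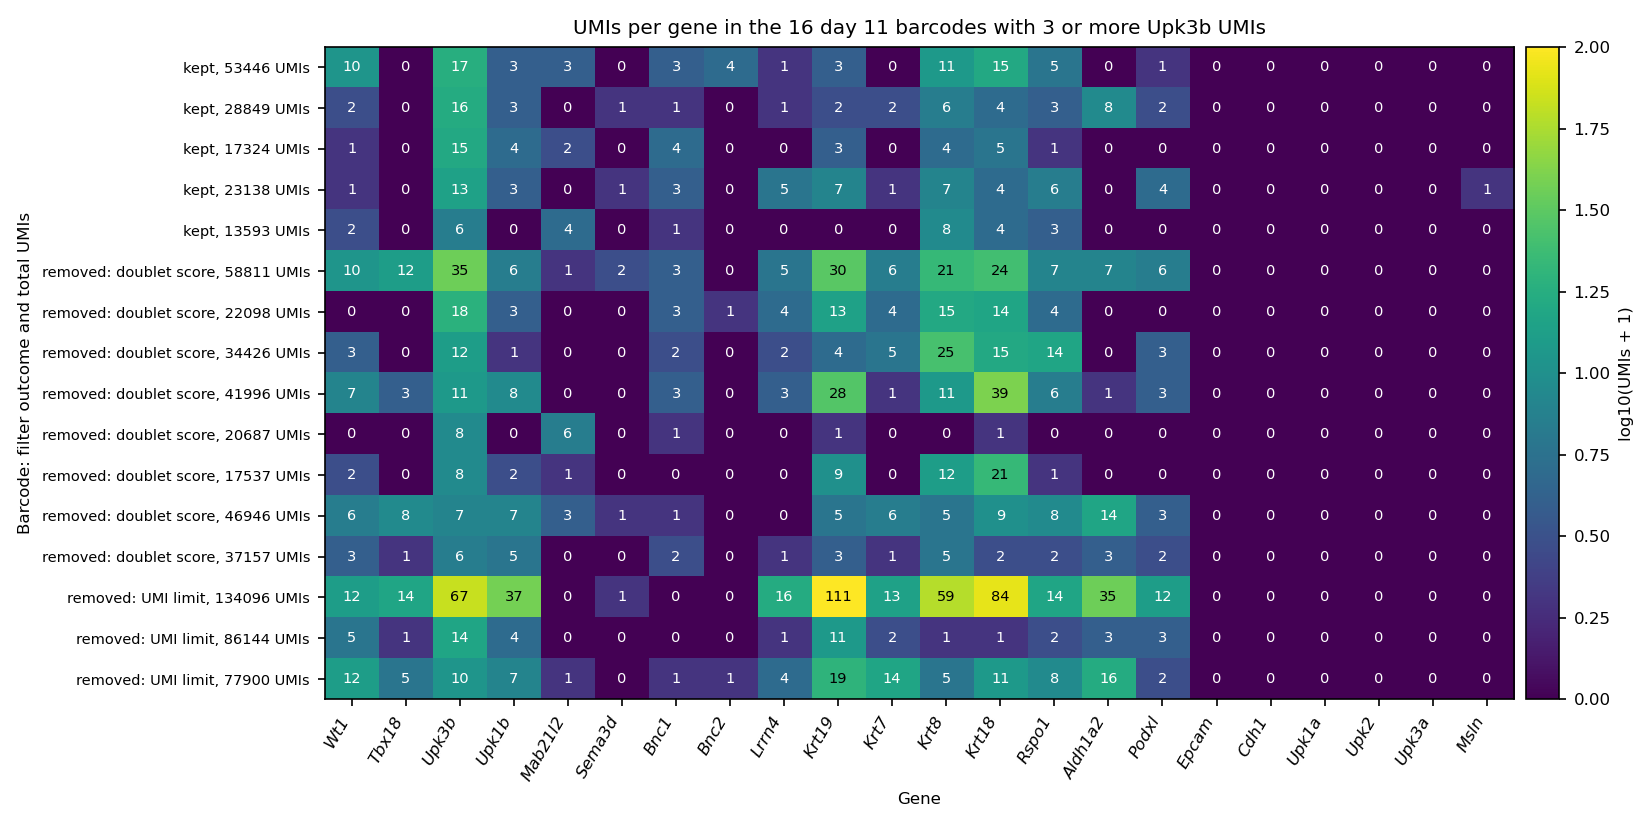
UMIs per gene in the 16 day 11 barcodes with 3 or more *Upk3b* UMIs, grouped by filter outcome with each barcode's total UMIs and coloured by log10(UMIs + 1) up to 2. *Wt1*, *Upk1b*, *Bnc1*, *Krt19*, *Krt8* and *Krt18* recur across kept and removed barcodes, and *Epcam*, *Cdh1*, *Upk1a*, *Upk2* and *Upk3a* are at 0 in all 16.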

How the data were processed

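Single-cell 3' libraries were made with 10x Genomics chemistry, 1 per day. Per the labels, the authors ran Cell Ranger 3.1.0 against mm10; the matrix headers name 3.1.0 for days 4, 5 and 6 and 6.0.1 for day 11. The deposited values are UMI counts per gene and barcode, not normalized. Barcodes were kept with more than 200 genes, under 20% mitochondrial and over 5% ribosomal UMIs, and a log depth within 3 median absolute deviations of the median. The 8% highest doublet scores per library were removed. Kept cells were clustered on variable genes without the 8 genes (Leiden, resolution 1, leidenalg 0.10.2). Total depth was 149169498 to 236714826 UMIs per library.

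Levels are summed UMIs scaled to CPM with exact Poisson intervals, shares have exact Clopper-Pearson intervals and ratios exact conditional intervals, all at 95%. Sets of cells were compared after adding 10 CPM, and a gene was called higher at 2-fold or more when found in at least 10% of the set. Day changes used genes with at least 10 UMIs over both libraries. Thinning drew 5000 UMIs per cell, leaving out 12 cells at day 6 and 321 at day 11. Pairs used 10 depth strata, or 3 within each cluster. Correlations were Pearson's r of log-scaled values across kept cells, with no p. The genes named are the 8 genes, the genes of the lists, the 3 best-correlated genes per member and the leading genes of clusters; *Wt1os* was added after its values were seen. The comparison of sets and the expectation for pairs within depth strata were tested on simulated data, and the other steps were not. The genes, lists and markers were chosen with earlier results of these data known. Analyses used Python 3.11.15 and SciPy 1.17.1.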

Additional observations from a re-analysis of the deposited data

Results flagged for a closer look

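Barcodes outside the kept cells held a signal of their own: of the 16 *Upk3b*-rich barcodes at day 11, 11 were removed by the cell filters, 8 by the doublet score and 3 by the upper limit on UMIs. Whether they hold 1 cell or several was not tested.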

How the results depend on the processing

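For the main counts and levels of the comparisons, 73 values under alternatives stayed within 1.5 times or within their interval and 21 moved. The 73 include the alternative without a filter on low counts. It could not alter the counts of members rising or falling 2-fold, so its values stayed by construction. For the levels and positive shares of single genes by day, 40 stayed within their interval and 56 moved. Changes of direction were not scored, and causes were not tested. With every cell of more than 200 genes, 0 members fell 2-fold from day 6 to day 11, 6 day 11 pairs passed and 2.09% of day 11 cells held 3 or more members. With doublets left in, 5 day 11 pairs passed, 6.55% of day 6 and 2.06% of day 11 cells held 3 or more members, 3 juxtacardiac and 0 fibroblast genes were raised at day 6 and 1 limb gene at day 11, and *Wt1* in endothelium-like cells of day 6 was at 4.34 CPM. Positive at 2 UMIs, the shares were 1.20% and 0.153%. Thinned to 5000 UMIs, 6 of 15 pairs passed at day 6 and 6 of 21 at day 11, and the shares were 0.401% and 0.398%. Sets of 2 or more members raised 3 fibroblast genes at day 11, sets of 4 or more 1 limb gene, and a pseudocount of 1 CPM raised 4 fibroblast genes at day 6. Added after seeing the data: without *Upk3b*-positive cells 8 of 21 day 6 pairs passed, since pairs with *Upk3b* were lost, and over every deposited barcode 16 were *Upk3b*-rich at day 11 in place of 5. *Upk3b* at day 11 was at 0.606 CPM, but at 1.78 with every cell of more than 200 genes and at 1.32 with doublets left in. Leaving out endothelium-like cells, also added later, left 13 and 3 passing pairs. Scaling by median ratios moved the median of all genes by 0.13, 0.12 and 0.11 (log2) over the 3 steps. No paired analysis was possible because each day had 1 library, and with 1 library no replicate could be left out.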
